A study of Mus musculus with 6 samples.

Results

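The cells described here are macrophages from 4T1 tumour material that carry the most RNA of Ly6c2, Ms4a4c and Ly6i and little complement C1q RNA, called Ly6c2 Ms4a4c Ly6i monocyte-like cells. They were chosen by their counts. Counts are molecules counted once by a molecular tag (UMIs), given per 10000 UMIs of a cell. A cell was taken as a macrophage when Csf1r, Cd68 and Adgre1 summed to at least 5 per 10000 and to more than Epcam, Krt7, Krt8 and Krt18. Cells with 4 or more UMIs of Mki67, Top2a and Cenpf were left out as cycling, which left 6791 of 7345 macrophages. The top 25% of these by Ly6c2, Ms4a4c and Ly6i held 1698 cells. Removing the 157 that were also in the top 25% by C1qa, C1qb and C1qc gave 1541 monocyte-like cells, called members in the plots. They made up 22.7% of non-cycling macrophages and 3.65% of the 42259 cells that passed the filters, out of 42902 deposited barcodes.

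The rule cuts a continuous range. The lowest sum of the 3 genes inside the top 25% was 3.0684 per 10000 and the highest below it was 3.0628. The 157 cells removed for their C1q RNA lie above this threshold and are counted among the other macrophages. Of the monocyte-like cells 213 lay below 4 per 10000 and 383 below 5, while 507 macrophages outside lay between 2 and the threshold. The median sum was 8.83 per 10000 in monocyte-like cells (10th to 90th percentile 3.76 to 35.8) and 0.471 in the other 5250 non-cycling macrophages, 2226 of which had no UMI of these genes. UMIs of all 3 genes were seen in 646 monocyte-like cells, of 2 genes in 604 and of 1 gene in 291. The median C1q sum was 13.1 per 10000 in monocyte-like cells, against 96.5 in the other macrophages. Only 31 monocyte-like cells had no C1q UMI at all. These values chose the cells and are given as a description.

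In mice, classical monocytes leave the bone marrow through the chemokine receptor Ccr2, carry high surface Ly6C (encoded by Ly6c1 and Ly6c2) and enter inflamed tissue and tumours. There they lose Ly6C and gain macrophage genes such as those for complement C1q, antigen presentation and lysosomal enzymes. Tumour monocytes and the macrophages that arise from them can express arginase, inducible nitric oxide synthase and chemokines that act on T cells.

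The 6 libraries comprise 3 labelled shPgk1, from cells given a lentiviral shRNA against Pgk1, and 3 labelled shNC, given a non-targeting shRNA. By the labels, 4T1, a mouse breast carcinoma line that stands in for the triple-negative disease, was transduced for 48 hours and selected in 2 µg/mL puromycin for 7 days in both groups. The labels name 4T1 as the cell type of every library and describe no host, although macrophages and other immune and stromal cells are present. Where the monocyte-like cells came from is therefore not stated. The series text calls the libraries biological replicates, and whether each came from its own animal or culture is not stated, so the p-values rest on library-to-library spread, which may be technical. Libraries held 78778073 to 128933960 UMIs in 6301 to 7810 barcodes. Barcodes are running numbers, so the 1234 to 1671 names shared by each pair of libraries do not show shared cells, and 0 of them had the same counts.

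Monocyte-like cells numbered 239, 92 and 140 in libraries 1 to 3 labelled shPgk1, against 606, 298 and 166 in shNC libraries 1 to 3. Their summed UMIs were 3706135, 1005422 and 1733673 in libraries labelled shPgk1 and 9111932, 3374163 and 2003787 in shNC. Levels below are CPM, the UMIs of a gene scaled to these sums. The median depth of a monocyte-like cell was 12177 UMIs, against 16453 in the other macrophages. It was 14168, 9661.5 and 10673.5 UMIs in libraries labelled shPgk1 and 13931, 10110 and 10694.5 UMIs in shNC. A UMI of Epcam, Krt7, Krt8 or Krt18 was present in 80.2 to 91.6% of monocyte-like cells by library. Whether this was free RNA, tumour RNA within the macrophages or doublets was not tested.

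The label was checked against classical monocyte markers that the rule did not use. Plac8, a small cysteine-rich protein gene abundant in monocytes, stood at 761, 1582 and 1397 CPM in libraries labelled shPgk1 and at 1431, 1217 and 1368 CPM in shNC. In the other macrophages it stood at 120 to 247 CPM, below every value of the monocyte-like cells. The log2 ratio of monocyte-like cells over other macrophages was 2.95 ± 0.35 (SD of 6 libraries, on the log2(CPM + 5) scale, as are all such ratios here). Ccr2 stood at 125, 224 and 169 CPM in libraries labelled shPgk1 and 94.8, 103 and 87.3 CPM in shNC, against 16.4 to 30.4 CPM in the other macrophages (log2 ratio 2.29 ± 0.26). Hp, which encodes haptoglobin, averaged 164 ± 47.6 CPM in monocyte-like cells and 31.2 ± 8.84 CPM in other macrophages (SD, n = 6 libraries). The groups of cells did not overlap in any of these 3 genes.

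Of the 16 classical monocyte markers, 11 reached 20 CPM. Without the rule genes Ly6c2, Ms4a4c and Ly6i there were 8, of which 5 were higher in monocyte-like cells in 6 of 6 libraries and 0 lower, with a median log2 ratio of 0.48 (2.22 with the rule genes). Among all 5053 genes at this level 39.7% were higher in 6 of 6 libraries and 11.3% were lower, with a median log2 ratio of 0.14, so a list of this kind is to be read against that share. Besides Plac8, Ccr2 and Hp, the integrin gene Itgam (log2 ratio 0.43 ± 0.18) and the lipopolysaccharide co-receptor gene Cd14 (0.46 ± 0.17) were higher by less. Chil3, a chitinase-like protein gene, and Vcan, a proteoglycan gene, both marks of blood monocytes, were sparse, at 13.9 ± 4.51 and 14.5 ± 6.59 CPM. The clotting factor gene F13a1 averaged 45.4 ± 5.73 CPM in monocyte-like cells and 41.6 ± 17.1 CPM in other macrophages. Macrophage RNA was present as well, since C1qa averaged 1630 ± 172 CPM and Cd74, the invariant chain of MHC class II, 11741 ± 977 CPM.

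After thinning each cell to 5000 UMIs, which kept 413 monocyte-like cells of libraries labelled shPgk1 and 911 of shNC, a Ccr2 UMI was seen in 34.9% of monocyte-like cells (Wilson 95% interval 32.4 to 37.5%, counting error only), against 8.39% of other macrophages. It was seen in 50.6% and 18.7% before thinning. In tumour-like cells, which should lack Ccr2, the thinned share was 2.58%. The corresponding shares for Plac8 were 86.3% of monocyte-like cells, 42.8% of other macrophages and 27.1% of tumour-like cells. Those of Hp were 34.3%, 9.35% and 3.78%. Of the rule genes, Ly6c2 was seen in 71.5% of monocyte-like cells, 8.39% of other macrophages and 13.8% of tumour-like cells, where the choice of cells set the first 2 shares. Median depths before thinning were 12177, 16453 and 8651 UMIs in the 3 classes.

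Genes of neighbouring cell types were mixed. Ly6g, the neutrophil surface marker gene, had a UMI in 0.227% of thinned monocyte-like cells, against 0.224% of tumour-like cells. Other genes of the neutrophil list were seen more often: Csf3r, the G-CSF receptor gene, in 18.4% of monocyte-like cells, 13.5% of other macrophages and 2.93% of tumour-like cells, and S100a8 in 41.5%, 32.9% and 23.3%. Flt3, a cytokine receptor gene of dendritic cells and their precursors, was seen in 1.06% and Cd209a, a type 2 dendritic cell marker, in 0.453%. Treml4, a gene of non-classical monocytes, was seen in 2.64% of monocyte-like cells and 1.90% of other macrophages. Cx3cr1, the fractalkine receptor of patrolling monocytes and resident macrophages, averaged 68.8 ± 17.9 CPM in monocyte-like cells and 87.6 ± 25.5 CPM in other macrophages.

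Both further genes that came with the label were also higher in monocyte-like cells in 6 of 6 libraries, but their levels overlapped between the classes. Ccl5, a chemokine that draws T cells and monocytes, stood at 2269, 703 and 542 CPM in libraries labelled shPgk1 and at 3414, 1370 and 1609 CPM in shNC, against 838, 273 and 277 CPM and 1280, 498 and 505 CPM in the other macrophages of the same libraries. It was higher in monocyte-like cells in 6 of 6 libraries (log2 ratio 1.38 ± 0.23), with the library numbered 1 the highest of each group. Slc7a2, a cationic amino acid transporter that brings arginine into the cell, averaged 179 ± 64.7 CPM in monocyte-like cells and 112 ± 23.6 CPM in other macrophages. Its log2 ratio of 0.61 ± 0.33 ranged from 0.02 to 0.93 between libraries.

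**Figure D1:**
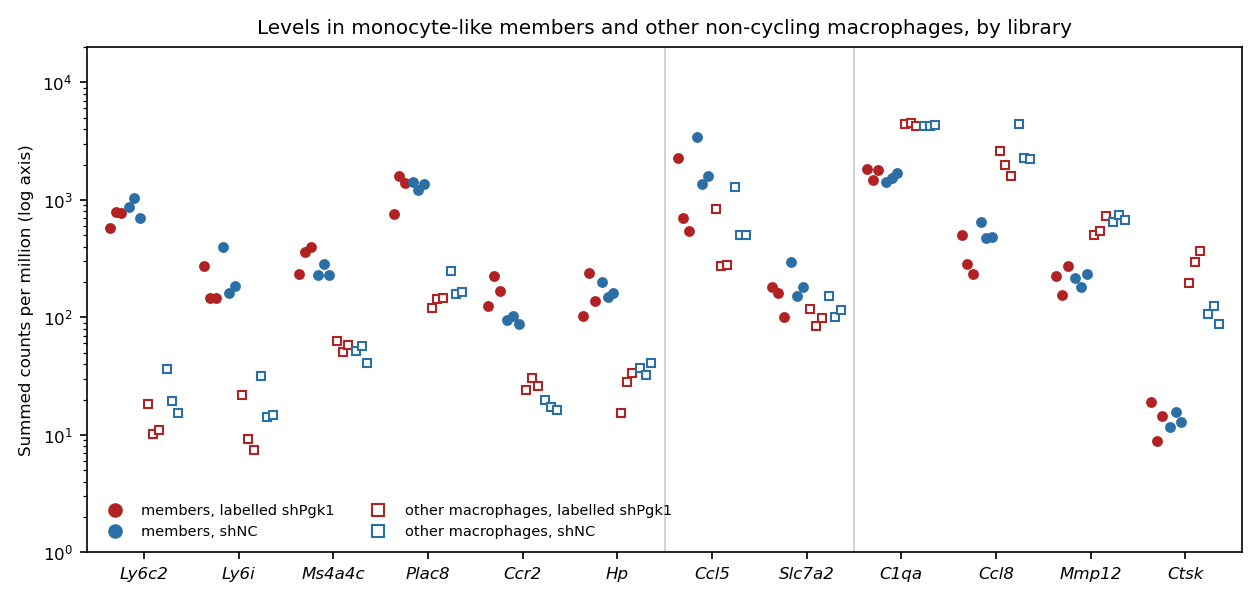
CPM on a log axis of 12 genes in each library, in monocyte-like cells (filled circles) and other non-cycling macrophages (open squares), libraries labelled shPgk1 in red and left of shNC in blue. Plac8, Ccr2 and Hp separate the 2 classes without overlap, Ccl5 and Slc7a2 overlap between them, and Ctsk is at 8.95 to 19.2 CPM in monocyte-like cells and 88.0 to 364 CPM in the other macrophages.

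Other genes with the highest ratios grouped by role. The Ly6 family gave Ly6c1 (log2 ratio 2.80 ± 0.49), Ly6a (1.30 ± 0.35) and Ly6e (1.13 ± 0.24), small GPI-anchored surface proteins of which Ly6a and Ly6e respond to interferon. Ly6c1 and Ly6c2 are near copies: their annotated transcripts are 97.6% identical over 822 aligned bases, and the handling of reads that fit both is not stated. Ly6c1 also had a UMI in 61.4% of thinned tumour-like cells. The levels of these genes are therefore uncertain, those of Ly6i less so, at 85.1% identity with Ly6c2. Secreted factors were Inhba, the activin A subunit (405 ± 147 CPM in monocyte-like cells, 127 ± 58.8 CPM in other macrophages, log2 ratio 1.68 ± 0.46), Thbs1, thrombospondin 1 (106 and 34.2 CPM), and Slpi, a protease inhibitor (1.41 ± 0.52). A Thbs1 UMI was seen in 24.7% of thinned monocyte-like cells and 26.9% of tumour-like cells. The shares for Inhba were 37.4% and 31.5%, and in monocyte-like cells without a UMI of the 4 tumour genes its log2 ratio was 0.02. The other macrophages in that ratio were not filtered in this way, and 85.3 to 94.8% of them by library had such a UMI. The 2 sides of the ratio are therefore not alike. Receptors were the formyl peptide receptor Fpr2 (1.28 ± 0.28), the C-type lectin Clec4e (1.23 ± 0.20) and the leukotriene B4 receptor Ltb4r1 (1.13 ± 0.31). Traf1, a signalling adaptor of the TNF receptor family, averaged 104 ± 12.3 CPM in monocyte-like cells and 37.8 ± 4.17 CPM in other macrophages.

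Genes of tissue macrophages stood lower. Of 11 tissue macrophage genes at 20 CPM other than C1qa, C1qb and C1qc, which the rule used, 7 were lower in monocyte-like cells in 6 of 6 libraries and 1 was higher (median log2 ratio −0.67). Apoe, a lipid carrier, averaged 12996 ± 1675 CPM in monocyte-like cells and 20717 ± 2403 CPM in other macrophages. Trem2, a lipid-sensing receptor, averaged 223 ± 35.7 and 367 ± 16.7 CPM. Of 16 lipid-associated macrophage genes 11 were lower and 2 higher (median −0.44). They included Mmp12, the macrophage elastase gene (214 ± 41.3 CPM in monocyte-like cells, 640 ± 96.7 CPM in other macrophages), and Fabp5, a fatty acid carrier (log2 ratio −1.29 ± 0.46). The chemokines Ccl8 and Pf4 had log2 ratios of −2.52 ± 0.28 and −1.98 ± 0.45. Ctsk, the osteoclast protease, had the lowest ratio, at 8.95 to 19.2 CPM in monocyte-like cells and 88.0 to 364 CPM in other macrophages.

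The nearest contrast was with C1q-high macrophages outside the Ly6c2 top 25%, also 1541 cells. Against them the log2 ratio of Inhba was 3.40 and that of Hp 2.95, larger than against the other macrophages together, while Ccl8 was at −3.49. Ctsk and Mmp12 did not separate the 2, at 0.47 and −0.01, with 8.80 and 220 CPM in the C1q-high cells. These are descriptions, since the cells were chosen on counts from the same libraries.

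Interferon and NF-kB genes were among those at higher levels. Of 28 type I interferon-stimulated genes at 20 CPM, 24 were higher in monocyte-like cells in 6 of 6 libraries (median log2 ratio 0.61), including the ubiquitin-like Isg15 (795 ± 98.1 CPM in monocyte-like cells, 447 ± 93.6 CPM in other macrophages) and the transcription factor Irf7 (192 ± 32.5 and 102 ± 12.9 CPM). Of 20 interferon gamma targets 12 were higher (median 0.38), with the T cell chemokine Cxcl9 at 324 ± 119 CPM in monocyte-like cells and 209 ± 91.6 CPM in other macrophages. Of 20 NF-kB subunits and feedback genes 16 were higher (median 0.46) and 1 lower, with Birc3, an apoptosis inhibitor, at a log2 ratio of 0.70 ± 0.17. The share of all genes that were higher, 39.7%, lies below each of these counts, and none was tested. Of 13 MHC class II genes 9 were higher, with a median of 0.26. Cd274, the gene of the checkpoint ligand PD-L1, averaged 318 ± 68.3 CPM in monocyte-like cells and 219 ± 56.8 CPM in other macrophages.

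Arginine can be used by nitric oxide synthase or by arginase, and both genes were present. Arg1 averaged 1093 ± 277 CPM in monocyte-like cells and 1143 ± 152 CPM in other macrophages, with a log2 ratio of −0.10 ± 0.49. Nos2 averaged 134 ± 93.5 and 82.9 ± 40.6 CPM (log2 ratio 0.52 ± 0.52, higher in 5 of 6 libraries). After thinning, a Nos2 UMI was seen in 33.0% of monocyte-like cells, 21.8% of other macrophages and 24.0% of tumour-like cells. In 24.6% of monocyte-like cells both Nos2 and Arg1 were seen, against 20.7% if the 2 were independent. In the other macrophages the shares were 17.1% and 15.7%. Cells of all libraries were pooled here, and the part of differences between libraries was not tested.

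Monocyte-like cells varied among themselves. They were split into 3 bins by the sum of the 3 rule genes, with 514, 513 and 514 cells from the lowest bin to the highest and at least 27 cells of each library in every bin. Plac8 stood at 577 ± 119, 1183 ± 322 and 2543 ± 498 CPM from the lowest bin to the highest (SD, n = 6 libraries). Ccr2 stood at 80.8 ± 34.7, 145 ± 90.8 and 211 ± 77.4 CPM, Hp at 85.6 ± 39.4, 142 ± 55.2 and 310 ± 111 CPM, and Hopx, a small homeodomain protein gene, at 49.8 ± 10.4, 78.0 ± 10.5 and 149 ± 31.8 CPM. Each of these was higher in the highest bin than in the lowest in 6 of 6 libraries. Cd14 and Fn1, also on the classical monocyte list, were not. Cd14 stood at 1455 ± 303, 1651 ± 253 and 1588 ± 326 CPM. Fn1, the fibronectin gene, was at 394 ± 143, 426 ± 142 and 394 ± 99.4 CPM.

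Some macrophage genes ran the other way. C1qa stood at 2322 ± 245, 1440 ± 402 and 765 ± 162 CPM, Ccl8 at 714 ± 320, 343 ± 197 and 145 ± 93.4 CPM, and Mmp12 at 301 ± 118, 204 ± 79.2 and 93.0 ± 29.5 CPM, lower in the highest bin than in the lowest in 6 of 6 libraries. H2-Ab1, an MHC class II chain, was level, at 8235 ± 672, 8772 ± 1096 and 7835 ± 1818 CPM, as was Il1b, the interleukin 1 beta gene, at 3731 ± 825, 3959 ± 458 and 4220 ± 893 CPM. Ccl5 and Slc7a2 were highest in the middle bin, at 2160 ± 1198 and 245 ± 98.5 CPM, and Slc7a2 was lower in the highest bin than in the lowest in 5 of 6 libraries. Not all macrophage genes fell. Csf1r was higher in the highest bin than in the lowest in 6 of 6 libraries, at 335 ± 41.2, 370 ± 27.3 and 382 ± 41.6 CPM. Cd68 was level, at 382 ± 59.3, 381 ± 35.8 and 373 ± 49.7 CPM. C1qa, Csf1r and Cd68 were also used to choose the cells. The share of all genes that differed between bins was not counted. Median depth moved with the bins, at 13806.5, 12556 and 10733 UMIs, and its part in these differences was not tested.

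**Figure D2:**
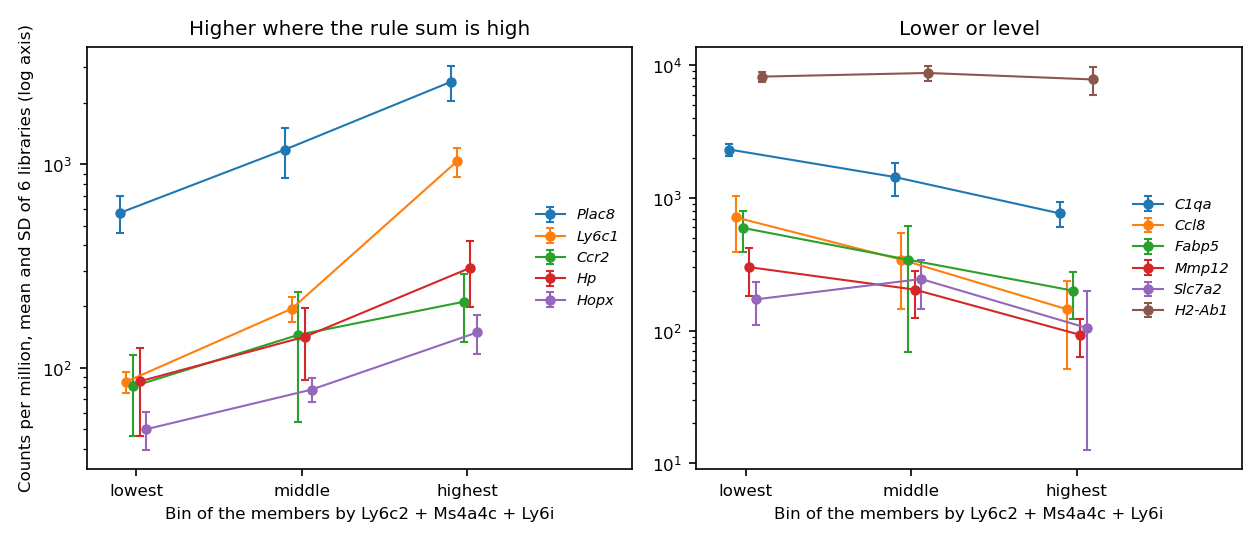
CPM on a log axis in the lowest, middle and highest bin of monocyte-like cells by Ly6c2, Ms4a4c and Ly6i, as means and SD of 6 libraries. Plac8, Ly6c1, Ccr2, Hp and Hopx are higher in the highest bin (left panel), C1qa, Ccl8, Fabp5 and Mmp12 are lower there, Slc7a2 is highest in the middle bin at 245 CPM and H2-Ab1 stays near 8000 CPM (right panel).

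The first comparison between the groups asked whether the monocyte-like state made up a different share of the macrophages. Monocyte-like cells were 19.9, 13 and 16.1% of non-cycling macrophages in libraries labelled shPgk1, against 37.2, 25 and 13.9% in shNC. The shNC libraries spread widely, and the third lay within the range of the libraries labelled shPgk1. The means were 16.3 ± 3.49% and 25.4 ± 11.7% (SD, n = 3 each), a difference of −9.07 percentage points (two-sided exact permutation test, p = 0.300, where 3 against 3 cannot go below 0.1). Counting error was smaller than this spread, since the Wilson 95% interval was 34.9 to 39.6% in shNC library 1 and 12 to 16.0% in shNC library 3. Without shNC library 1 the difference was −3.14 points.

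As a share of all kept cells they were 3.56, 1.24 and 1.89% in libraries labelled shPgk1 and 7.87, 4.80 and 2.43% in shNC. The means were 2.23 ± 1.20% and 5.03 ± 2.73%, a difference of −2.80 points (exact permutation test, p = 0.200), and −1.38 points without shNC library 1. The groups overlapped here too, and this share also moves with the number of tumour-like and other cells in each suspension.

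**Figure D3:**
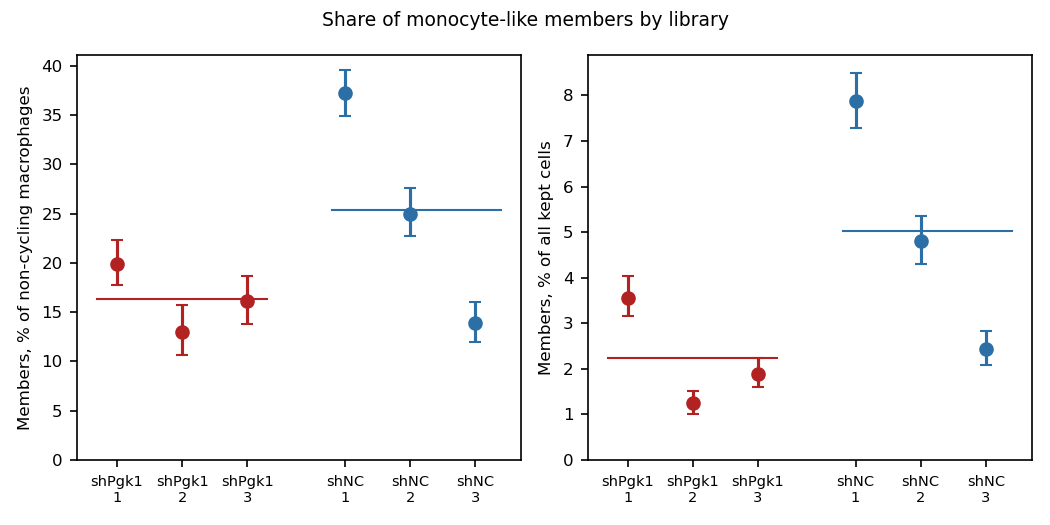
Percentage of monocyte-like cells among non-cycling macrophages (left) and among all kept cells (right) in each library, with Wilson 95% intervals for counting error and a line at the mean of each group, libraries labelled shPgk1 left of shNC. shNC libraries run from 13.9 to 37.2% of macrophages and cover the highest of the libraries labelled shPgk1, at 19.9%.

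Pgk1, which encodes the glycolytic enzyme phosphoglycerate kinase and is the target of the shRNA, was examined next. Its level in monocyte-like cells was 399, 361 and 368 CPM in libraries labelled shPgk1 and 427, 474 and 374 CPM in shNC (log2 fold −0.25 ± 0.11 SE, edgeR adjusted p = 0.412). The ranges overlapped. In tumour-like cells, the kind the labels describe as transduced, the levels were 245, 293 and 313 CPM in libraries labelled shPgk1 and 275, 239 and 226 CPM in shNC. The counts thus show no lower Pgk1 RNA in the tumour-like cells of the libraries labelled shPgk1, so the name shPgk1 is used here as a label.

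In monocyte-like cells 32 of 9853 genes tested passed an adjusted p of 0.05 (0.325%), of which 2 rose (0.0203%) and 30 fell (0.304%) in libraries labelled shPgk1. The test was edgeR's quasi-likelihood test on the summed UMIs of 3 libraries against 3. The median log2 fold over all genes was 0.00. Libraries of the groups did not overlap for 18.5% of genes. At an unadjusted p below 0.05 there were 1034 genes (10.5%), 408 higher (4.14%) and 626 lower (6.35%), the share against which the counts at that threshold below are to be read. The count depended on single libraries. It was 10 higher and 38 lower without library 1 labelled shPgk1, 1 and 17 without library 2, 0 and 2 without library 3, 3 and 88 without shNC library 1, 1 and 10 without shNC library 2, and 7 and 25 without shNC library 3. Of the 32 genes 2 passed in all 6 of these fits, the gene model Gm14015 and S100a8, and 9 passed in at least 4.

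Genes of the response to low oxygen were among those that fell. Hypoxia targets are switched on by the HIF transcription factors, which bind a short core sequence near the gene's start. Of 18 such genes 3 fell, none rose and 15 did not pass, with a median log2 fold of −0.37, against 0.00 over all genes. At an unadjusted p below 0.05 there were 10, all lower, where 6.35% of all genes were lower. Vegfa, the vascular growth factor, stood at 181, 156 and 175 CPM in libraries labelled shPgk1 and 267, 240 and 248 CPM in shNC (log2 fold −0.63 ± 0.10 SE, edgeR adjusted p = 0.0196). Ddit4, an inhibitor of mTORC1 signalling, stood at 96.3, 112 and 98.1 CPM in libraries labelled shPgk1 and 144, 164 and 214 CPM in shNC (−0.84 ± 0.15, adjusted p = 0.0303). The glucose transporter Slc2a1 stood at 166, 124 and 141 CPM in libraries labelled shPgk1 and 212, 207 and 223 CPM in shNC (−0.63 ± 0.12, adjusted p = 0.0353). In all 3 genes every library labelled shPgk1 was below every shNC library. The calls were thin, with Vegfa past the threshold in 3, Slc2a1 in 2 and Ddit4 in 1 of the 6 fits that left out a library. Hilpda, a lipid droplet protein, had 338 ± 20.9 CPM in libraries labelled shPgk1 and 443 ± 48.8 CPM in shNC and did not pass (−0.47 ± 0.11, adjusted p = 0.0709).

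Glycolysis genes were a neighbouring list that shares Slc2a1. Of 19 enzymes and transporters 2 fell, Slc2a1 and the lactate exporter Slc16a3, none rose and 17 did not pass (median log2 fold −0.22). Slc16a3 stood at 113, 90.5 and 106 CPM in libraries labelled shPgk1 and 154, 143 and 150 CPM in shNC (−0.59 ± 0.12 SE, edgeR adjusted p = 0.0455), and passed in 1 of the 6 fits without a library. The lactate dehydrogenase gene Ldha was at 638 ± 20.5 CPM in libraries labelled shPgk1 and 708 ± 31.0 CPM in shNC (−0.23 ± 0.09, adjusted p = 0.361). Hexokinase 2 (Hk2) had 383 ± 64.9 and 420 ± 78.9 CPM (−0.21 ± 0.15, adjusted p = 0.680).

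The 250 bases before the annotated start are shown for 4 genes whose windows hold the HIF core ACGTG or the core GAGGAAGT bound by the myeloid factor PU.1. Windows without a match, among them that of Vegfa, are not shown. Sequences are from RefSeq on build GRCm38.p6, written in the direction of the gene, and capitals mark the matched core. Of 20 genes looked for 13 had an entry.
Slc2a1 (chr4:119108495-119108744, plus strand): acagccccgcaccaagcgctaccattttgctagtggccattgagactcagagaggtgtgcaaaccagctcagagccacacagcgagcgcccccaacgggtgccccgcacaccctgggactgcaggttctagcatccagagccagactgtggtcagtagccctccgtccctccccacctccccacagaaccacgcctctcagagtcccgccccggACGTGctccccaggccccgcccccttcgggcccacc
Ddit4 (chr10:59951771-59952020, minus strand): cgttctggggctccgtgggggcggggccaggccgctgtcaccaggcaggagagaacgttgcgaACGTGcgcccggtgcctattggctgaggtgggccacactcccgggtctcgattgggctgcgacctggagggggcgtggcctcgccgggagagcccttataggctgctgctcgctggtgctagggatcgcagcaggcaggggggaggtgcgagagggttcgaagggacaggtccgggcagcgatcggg
Slc16a3 (chr11:120948817-120949066, plus strand): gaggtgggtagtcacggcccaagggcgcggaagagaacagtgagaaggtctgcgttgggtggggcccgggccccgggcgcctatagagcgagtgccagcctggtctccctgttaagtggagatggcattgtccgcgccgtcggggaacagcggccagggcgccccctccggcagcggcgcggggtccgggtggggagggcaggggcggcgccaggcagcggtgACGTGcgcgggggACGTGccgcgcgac
Ly6c2 (chr15:75111972-75112221, minus strand): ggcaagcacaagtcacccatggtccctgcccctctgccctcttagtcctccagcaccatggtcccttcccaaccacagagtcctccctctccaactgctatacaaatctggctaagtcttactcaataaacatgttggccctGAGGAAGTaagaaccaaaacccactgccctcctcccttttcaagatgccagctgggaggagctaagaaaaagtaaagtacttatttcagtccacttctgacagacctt

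ACGTG was searched on both strands, matches that overlap counted. It lies 36 bases before the start in Slc2a1, 187 in Ddit4, and 27 and 14 in Slc16a3. The window of Vegfa holds none. Slpi, whose 2 matches are the overlapping strands of 1 CACGTG, and Hopx, with 1 match, are genes high in monocyte-like cells that are not among the 32. Of all 32851 windows of this length 16.6% hold at least 1 match, so a match is common. GAGGAAGT lies 108 bases before the start in Ly6c2 and is found in 2.44% of windows. Other genes of Ly6c2-high cells with an entry, among them Ms4a4c, Plac8 and Ccr2, hold none in the window of their first listed start. A match is a stretch of letters and no evidence of binding in these cells.

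Genes of the innate immune response gave single calls. S100a8, a calcium-binding alarmin abundant in neutrophils and monocytes, had the largest fall among genes that passed at 20 CPM or more, at 98.5, 149 and 144 CPM in libraries labelled shPgk1 and 324, 397 and 373 CPM in shNC (log2 fold −1.58 ± 0.16 SE, edgeR adjusted p = 0.00118). Oasl1, an interferon-induced gene of the oligoadenylate synthetase family, stood at 254, 234 and 229 CPM in libraries labelled shPgk1 and 392, 400 and 368 CPM in shNC (−0.77 ± 0.10, adjusted p = 0.00333). It was the 1 of 38 type I interferon-stimulated genes that passed, and the median of that list was 0.17. Cebpb, a transcription factor of monocytes and macrophages, stood at 725, 729 and 674 CPM in libraries labelled shPgk1 and 905, 943 and 1182 CPM in shNC (−0.59 ± 0.11, adjusted p = 0.0348), the 1 of 23 myeloid transcription factors that passed. Adam8, a leukocyte surface metalloprotease, had 116 ± 21.4 CPM in libraries labelled shPgk1 and 197 ± 10.8 CPM in shNC (−0.82 ± 0.14, adjusted p = 0.0195). The groups did not overlap in any of the 4.

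Further falls by the naming rule covered several roles. Spata7, a ciliary protein gene, stood at 128, 105 and 122 CPM in libraries labelled shPgk1 and 233, 318 and 230 CPM in shNC (log2 fold −1.20 ± 0.14 SE, edgeR adjusted p = 0.00218). Cacna1d, a calcium channel subunit, had a fold of −1.15 ± 0.19 and Rhov, a small GTPase gene, of −0.88 ± 0.14. Fbxl5, the iron-sensing ubiquitin ligase subunit, fell by 0.80 on the log2 scale, Pmvk, an enzyme of cholesterol synthesis, by 0.88, Coro2a, an actin-binding protein, by 1.00 and Krr1, a ribosome assembly factor, by 1.25. Acta2, smooth muscle actin, and Rarres2, the chemerin gene, are marks of stromal cells and fell by 1.47 and 1.30. Nudcd3, Lars2 and Cdk8, which also passed and are named after their values were seen, had folds of −0.55, −0.45 and −0.46, as the gene model Gm48166 had −1.32. A further 9 genes passed at a mean below 20 CPM, Gm14015 with the largest fold among them, at 0, 0 and 0.577 CPM in libraries labelled shPgk1 and 40.7, 22.8 and 22.5 CPM in shNC.

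Only 2 genes rose. Fos, an immediate early transcription factor, stood at 923, 944 and 845 CPM in libraries labelled shPgk1 and 628, 644 and 519 CPM in shNC (log2 fold 0.52 ± 0.10 SE, edgeR adjusted p = 0.0377). It was the 1 of 20 immediate early genes that passed, and their median fold was 0.20. Klf4, a transcription factor of monocyte differentiation, with 264 ± 6.05 CPM in libraries labelled shPgk1 and 172 ± 18.4 CPM in shNC, and the stress factor Atf3, with 355 ± 23.7 and 236 ± 25 CPM, did not pass (adjusted p = 0.0536 and 0.0623). Ccnd1, cyclin D1, stood at 114, 91.5 and 105 CPM in libraries labelled shPgk1 and 65.5, 61.1 and 65.4 CPM in shNC (0.63 ± 0.13, adjusted p = 0.0444). Fos passed in 1 and Ccnd1 in 0 of the 6 fits without a library.

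**Figure D4:**
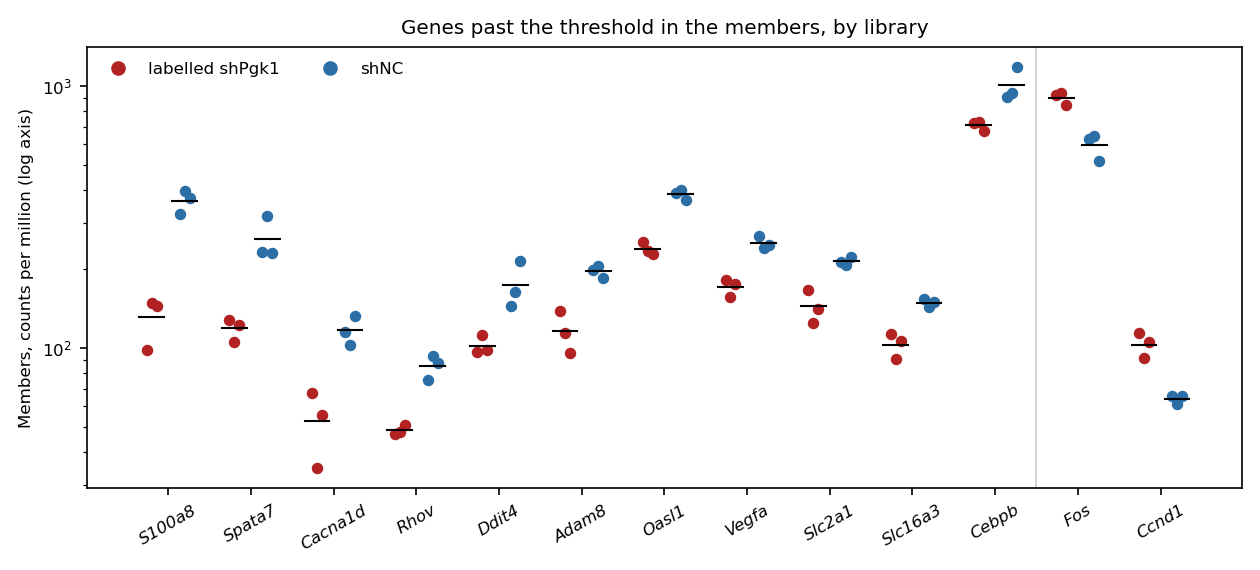
CPM on a log axis in monocyte-like cells of each library for 13 genes past the threshold, libraries labelled shPgk1 in red and left of shNC in blue, with a bar at each group's mean. In the 11 genes left of the grey line every library labelled shPgk1 is below every shNC library, and in Fos and Ccnd1 every one is above.

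Several lists held no gene past the threshold, unlike the type I interferon and myeloid transcription factor lists, which held 1 each as given above. Of 16 classical monocyte markers, 15 C1q and tissue macrophage genes, 18 lipid-associated macrophage genes, 24 interferon gamma targets, 22 NF-kB genes, 20 chemokines, 15 MHC class II genes and 12 genes of arginine and nitric oxide metabolism, none passed, with medians between −0.15 and 0.05. At an unadjusted p below 0.05 they gave 4, 2, 1, 6, 4, 6, 1 and 1 genes, where all genes gave 10.5%. The classical monocyte list holds the rule genes Ly6c2, Ms4a4c and Ly6i, and the tissue macrophage list holds C1qa, C1qb and C1qc. The choice of cells limits how far these genes can differ between the groups, so they say little about a change. Ly6c2 (edgeR unadjusted p = 0.0359) was among the 4. Plac8 had a log2 fold of −0.18 ± 0.28 SE and Hp of −0.22 ± 0.31. Ccr2 had 173 ± 49.5 CPM in libraries labelled shPgk1 and 95.2 ± 8.06 CPM in shNC, groups that did not overlap (0.75 ± 0.18, edgeR adjusted p = 0.124). Cd14 had 1369 ± 125 CPM in libraries labelled shPgk1 and 1741 ± 145 CPM in shNC (−0.42 ± 0.09, adjusted p = 0.0584). Ccl12, a ligand of Ccr2, had 165 ± 52.8 and 61.0 ± 19.3 CPM (1.38 ± 0.31, adjusted p = 0.180). None of these differences passed the test.

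NF-kB signalling and macrophage polarisation are named by the study's title. Of 15 alternative activation genes tested 1 passed, Vegfa, which fell and is given above with the hypoxia targets. None of the genes given in this paragraph with their levels passed. Nos2 stood at 125, 54.7 and 43.8 CPM in libraries labelled shPgk1 and 304, 130 and 146 CPM in shNC, with a log2 fold of −1.37 ± 0.58 SE that spans −2.53 to −0.22 at 2 standard errors (edgeR adjusted p = 0.525). Every library labelled shPgk1 was below every shNC library, by a narrow margin for library 1. Arg1 stood at 1286, 644 and 879 CPM in libraries labelled shPgk1 and 1378, 1208 and 1165 CPM in shNC (−0.48 ± 0.25, adjusted p = 0.580). Mrc1, the mannose receptor used as a mark of M2-like cells, had 67.2 ± 12.5 and 46.4 ± 6.01 CPM (0.43 ± 0.16, adjusted p = 0.318). Nfkbie, an NF-kB inhibitor gene, had 71.0 ± 2.71 CPM in libraries labelled shPgk1 and 94.0 ± 10.8 CPM in shNC (−0.48 ± 0.13, adjusted p = 0.135), and Il1b had 3732 ± 358 and 4081 ± 286 CPM (−0.20 ± 0.09, adjusted p = 0.409). Slc7a2 and Ccl5 had folds of −0.58 ± 0.33 and −0.91 ± 0.75, with groups that overlapped.

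RNA of other cell types within the monocyte-like cells moved with the groups. The 10 neutrophil markers summed to 236, 382 and 479 CPM in libraries labelled shPgk1 and to 811, 919 and 880 CPM in shNC. Of the 7 tested, S100a8, Ngp and Camp fell, although Ly6g was near 0. Over all kept cells the same list stood at 141, 641 and 483 CPM in libraries labelled shPgk1 and 1749, 2086 and 1402 CPM in shNC. The 10 fibroblast markers summed to 280, 359 and 394 CPM in libraries labelled shPgk1 and 568, 602 and 847 CPM in shNC. None of the 7 tested passed, and 7 were lower at an unadjusted p below 0.05, against 6.35% of all genes. The 10 tumour epithelial markers summed to 567, 671 and 656 CPM in libraries labelled shPgk1 and 429, 384 and 514 CPM in shNC, with none past the threshold. Mast cell and basophil markers were lower too, at 29.7, 10.9 and 28.3 CPM in libraries labelled shPgk1 and 144, 47.1 and 48.4 CPM in shNC. The part of this RNA in the called genes was not tested.

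Levels over all kept cells are therefore given beside the calls. S100a8 stood there at 57.1, 260 and 202 CPM in libraries labelled shPgk1 and 715, 904 and 608 CPM in shNC, above its level in monocyte-like cells in 5 of the 6 libraries. Acta2, Rarres2, Spata7, Ddit4 and Ccnd1 were also higher over all kept cells than in monocyte-like cells, Ccnd1 at 434 ± 10.8 CPM in libraries labelled shPgk1 and 287 ± 13.6 CPM in shNC. The groups overlapped there for Ddit4, at 208, 248 and 193 CPM in libraries labelled shPgk1 and 215, 268 and 344 CPM in shNC. Oasl1, Vegfa, Slc2a1, Slc16a3, Cebpb, Adam8, Rhov and Fos stood higher in monocyte-like cells than over all kept cells. Over all kept cells each of them still differed between the groups in the same direction, without overlap. Libraries labelled shPgk1 and shNC had 61.4 ± 9.25 and 112 ± 10.4 CPM of Vegfa there. For Oasl1 they had 86.9 ± 21.0 and 170 ± 42.7 CPM, and 37.6 ± 4.43 and 63.2 ± 4.66 CPM in tumour-like cells. The hypoxia targets summed over all kept cells to 1303, 1353 and 1279 CPM in libraries labelled shPgk1 and 1637, 1571 and 1701 CPM in shNC. The sums over all kept cells include the monocyte-like cells and move with the cell makeup of each library. Whether these genes changed within other classes of cells is therefore not shown by them. The 197 monocyte-like cells without a UMI of Epcam, Krt7, Krt8 and Krt18 allowed a test of 1351 genes, of which 0 rose and 2 fell, none of them among the 32. Of the 32 genes 16 could be tested there, 15 had the same sign and 9 a fold at least as large, among them S100a8 (−1.70) and Oasl1 (−1.57). These 197 cells are part of the cells in which the 32 genes were called, so the shared sign is no independent check. The choice also does not address RNA of neutrophils or fibroblasts.

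The same contrast was made in the other 5250 non-cycling macrophages, where 63 of 13653 genes passed (0.461%), 4 of them higher (0.0293%) and 59 lower (0.432%). In C1q-high macrophages 27 of 10694 passed (0.252%), 2 higher (0.0187%) and 25 lower (0.234%). Of the calls 12 were shared, 37.5% of those in monocyte-like cells and 19.0% of those in the other macrophages, and all 32 genes had the same sign in both. Both sets come from the same libraries. The other macrophages held more cells and UMIs, which bears on how many genes can pass. Nudcd3, Lars2 and Cdk8 had nearly the same fold in both, at −0.54, −0.46 and −0.46 in the other macrophages. Slc16a3 had −0.59 ± 0.12 in monocyte-like cells and −0.14 ± 0.09 in the other macrophages, and Coro2a, which fell by 1.00 on the log2 scale in monocyte-like cells, had −0.23 ± 0.15.

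The difference between the responses was tested itself, with library as a term. It passed for 0 of 13389 genes against the other macrophages (632 at an unadjusted p below 0.05) and for 0 of 11247 against C1q-high macrophages (684). For Slc16a3 the difference was −0.43 ± 0.12 SE (edgeR adjusted p = 0.572), for Coro2a −0.80 ± 0.22 (adjusted p = 0.527) and for Atf3, which had folds of 0.51 and 0.07, it was 0.43 ± 0.10 (adjusted p = 0.391). Leaving out a library gave 0 to 15 genes against the other macrophages, 13 without library 1 labelled shPgk1 and 15 when shNC library 1 was left out. Against C1q-high macrophages it gave 0 to 18, the most without library 2 labelled shPgk1. No response was thus shown to be particular to monocyte-like cells.

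**Figure D5:**
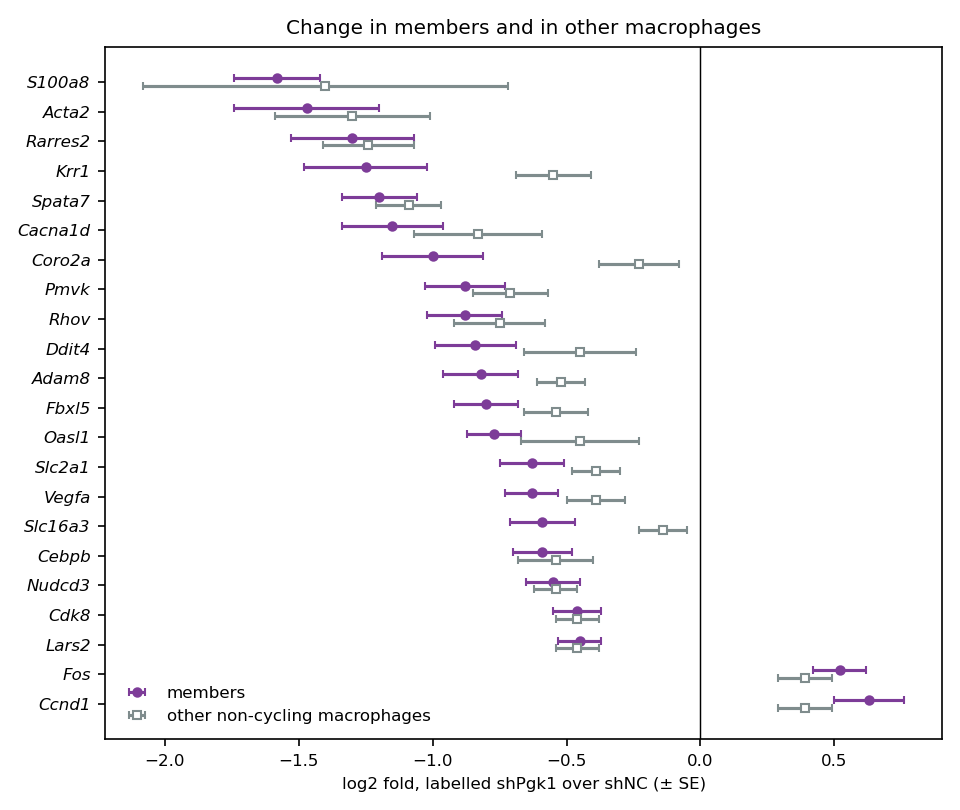
log2 fold of libraries labelled shPgk1 over shNC, with its standard error, for 22 genes past the threshold in monocyte-like cells at 20 CPM or more, in those cells (filled circles) and in other non-cycling macrophages (open squares). Each gene has the same sign in both classes, Coro2a, Krr1 and Slc16a3 are farthest apart, and the test of the difference passed for none.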

How the data were processed

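Droplet single-cell RNA-seq was deposited for 6 libraries as matrices of raw UMI counts, written by PISA 0.12 per the file headers. The submitters' processing notes name Seurat 4 and the human build GRCh38 (hg38), while the deposited gene names are mouse. Aligner, annotation and treatment of multi-mapping reads: not given in the sources used here.

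Filters kept barcodes with at least 300 genes and no more than 20% of UMIs from mitochondrial genes. Counts were summed per library over a class of cells, since cells are not replicates, and the sums entered edgeR 4.0.16 under R 4.3.3 (robust quasi-likelihood test, TMM, filterByExpr, group as the only term, Benjamini-Hochberg adjustment over all genes tested, threshold 0.05). Each SE is the log2 fold over the root of its F value. The difference between classes was fitted over 12 sums with library as a term. Exact permutation tests, two-sided, compared shares. Levels of classes are described on log2(CPM + 5) and not tested, because the rule chose the cells. The scripts were tested on simulated data.

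Members, gene lists and alternatives were chosen with earlier results of these data known. Genes were named by rule: up to 25 highest and 15 lowest ratios at 50 CPM or more, up to 12 rises and 12 falls past the threshold at 20 CPM or more with groups that do not overlap, and genes of the lists where a list is described. Gene models whose names start with Gm were left out of that rule. Doublets were scored with Scrublet in scanpy 1.11.5 (expected rate 0.06); its own threshold marked 1 cell in 4 libraries, so a score above 0.25 was used as an alternative, which 11 member cells passed. Replicate numbers were checked for pairing by correlating deviations from group means. They were −0.0332 to 0.0471 for same-numbered libraries, so no block was used. Counts of library pairs of a group differed by more than sampling noise. Alternatives covered normalization, test, low counts, member thresholds, free RNA, doublets, depth and each library left out. A few list members are not reported here.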

Additional observations from a re-analysis of the deposited data

How the results depend on the processing

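The count of genes that passed in monocyte-like cells, 2 higher and 30 lower, moved with many settings. DESeq2 gave 10 higher and 81 lower, no filter on low counts 66 and 236, a rule at the top 33% of cells 5 and 55 and no C1q exclusion 10 and 51. A macrophage threshold of 10 per 10000 gave 0 and 3, cells without tumour keratin and Epcam UMIs 0 and 2, and thinning to 1000 UMIs 0 and 8. Thinning to 5000 UMIs, chosen after seeing the data, gave 1 and 39. The cause was not tested, and the last 3 planned settings also tested fewer genes (5625, 1351 and 1546). After thinning and at the macrophage threshold of 10 the cells were chosen again, so these fits do not cover the same cells. Of the 1541 members, 54.3% were chosen again after thinning to 5000 UMIs, 29.8% after thinning to 1000 UMIs and 22.5% at the threshold of 10. Leaving out a library gave 0 to 10 higher and 2 to 88 lower. With the replicate number as a block, 20 rose and 133 fell, but same-numbered libraries share only a number. Size factors of DESeq2, removal of rRNA-like genes, a rule at the top 20% and removal of doublets kept both counts within 1.5 times.

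Genes that responded differently from other macrophages numbered 0, and 2 after thinning to 1000 and 6 after thinning to 5000 UMIs. Leaving out a library gave 0 to 15. Against C1q-high macrophages there were 0, 1 after thinning to 5000 UMIs, and 0 to 18 with a library left out. With a library left out, the share of members among non-cycling macrophages differed by −14.8 to −3.14 points and the share of members among kept cells by −4.11 to −1.38 points, none past the threshold. A macrophage threshold of 10 gave −5.26 and −0.582 points. Pairing by replicate number gave p = 0.500 and 0.25 (exact permutation test).

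Of 32 called genes 31 kept their sign in every alternative. Cacna1d had 0.31 in cells without tumour keratin and Epcam UMIs. Among uncalled genes, signs turned in those cells for Slc7a2 (0.33), Plac8 (0.04) and C1qa (−0.19), at the macrophage threshold of 10 for Hp (0.14) and C1qa (−0.32), and after thinning to 1000 UMIs for Ldha (0.11). They also turned when a library was left out, with ranges of −0.40 to 0.08 for Plac8 and −0.60 to 0.04 for Hp (both turned without library 1 labelled shPgk1), −0.15 to 0.04 for H2-Ab1 (without library 2 labelled shPgk1 and without shNC library 1), and −0.85 to 0.06 for Ly6i and −0.02 to 0.15 for C1qa (without shNC library 1). The 40 named level ratios kept their sign in every alternative, but 18 were smaller by over 1.5 times in at least 1. They included Inhba (0.02) and Ccl5 (0.58) in cells without tumour keratin and Epcam UMIs, set against other macrophages not filtered in this way. After thinning to 1000 UMIs they included Thbs1 (0.60), Traf1 (0.48) and Clec4e (0.46). Depth limits genes below about 20 CPM, since library 2 labelled shPgk1 held 1005422 UMIs in 92 cells.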

Other observations

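Levels of further gene groups in monocyte-like cells and the other macrophages are given as counts of genes at 20 CPM that differed in 6 of 6 libraries, with no test. They are to be read against all 5053 such genes, of which 39.7% were higher and 11.3% lower. Chemokine receptors and adhesion genes were higher for 12 of 17 and lower for 0 (median log2 ratio 0.43), among them Ccr7 and Selplg. Fc and innate receptors were higher for 13 of 18 and lower for 3 (median 0.36), with the inflammasome sensors Nlrp3 and Aim2 among the higher. Myeloid transcription factors were higher for 15 of 20 and lower for 1, the C1q-associated factor gene Maf. Immediate early genes were higher for 16 of 20 and lower for 2, Fosb and Egr1. Glycolysis genes were lower for 7 of 17 and higher for 2, and respiratory chain genes lower for 6 of 19 and higher for 1. Osteoclast-like genes were lower for 4 of 6 (median −1.80), namely Acp5, Ctsk, Mmp9 and Atp6v0d2.

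Between the groups, no gene of the heat shock, MHC class I, checkpoint, respiratory chain or proliferation lists passed the threshold in monocyte-like cells. The MHC class I list had 5 of 20 genes at an unadjusted p below 0.05 by edgeR, all lower in libraries labelled shPgk1, where 6.35% of all genes were lower, with a median log2 fold of −0.13. The gene model Gm14015 stood over all kept cells at 0.0896, 0.207 and 0.0234 CPM in libraries labelled shPgk1 and at 37.5, 22.5 and 21.7 CPM in shNC, so its difference is not confined to the monocyte-like cells.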
